A study of Rattus norvegicus with 18 samples.

Results

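How the effect of diethylnitrosamine (DEN) on rat liver changed between day 28 and day 84 of dosing was measured on one-colour gene expression arrays. The quantity is a difference of differences. For each gene, the day 28 effect of DEN (DEN minus vehicle) was subtracted from its day 84 effect, so a positive value means that DEN livers stood higher against their controls at day 84 than at day 28. The comparison used 12 of the 18 arrays of the series, 3 in each of 4 groups, which are vehicle at day 28, DEN at day 28, vehicle at day 84 and DEN at day 84. The livers came from male F344 rats that were 5 weeks old when bought and were kept on a basal diet. DEN in saline was given daily by gavage at 4 mg/kg body weight in 5 mL/kg. The control arrays carry the title Vehicle, whereas the treatment protocol describes the controls as untreated animals on basal diet, so whether they were gavaged is not settled by the labels. Nothing in the labels says that one array holds more than one rat or that replicates were processed apart, so the p-values measure the spread between these samples. Of 15645 genes matched to the array's probes, 10453 were tested because at least 1 of the 4 groups had a probe well above background on each of its 3 arrays.

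DEN is activated in hepatocytes by cytochrome P450 enzymes to an alkylating agent that damages DNA. Damaged hepatocytes switch on p53 target genes, and with continued dosing some give rise to foci of altered hepatocytes, known in the rat for the placental glutathione transferase GSTP1, γ-glutamyl transferase and enzymes of the oxidative stress factor NRF2. Foci and tumours also lose functions of mature hepatocytes, and repair of the injured tissue recruits duct-like progenitor cells, inflammatory cells and matrix-producing stellate cells.

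Levels are log2 processed signals relative to the 75th percentile of the same array, so 0 is the level of that percentile. The 75th percentile lay between 169.8 and 316.7 signal units and between 47.18% and 54.74% of probes were well above background. All 8 hepatocyte markers checked were measured. Their summed linear level was 5110 to 5280 in the day 28 vehicle arrays, 4410 to 4480 with DEN at day 28, 4430 to 4570 in the day 84 vehicle arrays and 2590 to 3120 with DEN at day 84. Of the variance over all genes tested, 60.3% lay on principal component 1. Its scores were -33.6 to -26.9 in the 6 vehicle arrays, -1.7 to 5.8 in the day 28 DEN arrays, and 57.2, 72.6 and 46.4 in replicates 1, 2 and 3 of DEN at day 84. All 6 arrays of day 28 were on 1 slide and all 6 of day 84 on another. A slide offset common to vehicle and DEN arrays cancels in this comparison, but slide and day cannot be told apart in its size.

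The DEN effect differed between the days in 2410 genes, 23.1% of those tested (limma, Benjamini-Hochberg adjusted p under 0.05). It was higher at day 84 in 978 genes, 9.36%, and lower in 1432 genes, 13.7%. In 748 of the 2410 the effects differed at least 2-fold. The count was 1420 without replicate 2 and 1604 without replicate 1 of vehicle at day 84, and it lay between 1622 and 3041 without any one of the other 10 arrays. Within days, 2417 genes (23.1%) differed between DEN and vehicle at day 28 and 6098 (58.3%) at day 84. With DEN, 1088 were higher and 1329 lower at day 28, and 2409 were higher and 3689 lower at day 84. Most of the 2410 genes had an effect that appeared late: 1731 were called at day 84 and not at day 28, 724 as rises and 1007 as falls. A further 374 were called at both days with the larger effect at day 84 (grown, 137 rises and 237 falls). Effects that shrank were fewer. Faded effects, called at both days and smaller at day 84, numbered 29, and 20 of them were rises. Lost effects, called at day 28 and not at day 84, numbered 173, and 111 of them were rises. The effect reversed its sign in 64 genes, to a rise in 28 and to a fall in 36. The remaining 39 were called at neither day. Another 1350 genes were called at both days with no call in the difference (kept, 567 rises and 783 falls). A missed call in the difference does not show equal effects. The median standard error (SE) of the difference was 0.15 on the log2 scale.

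**Figure D1:**
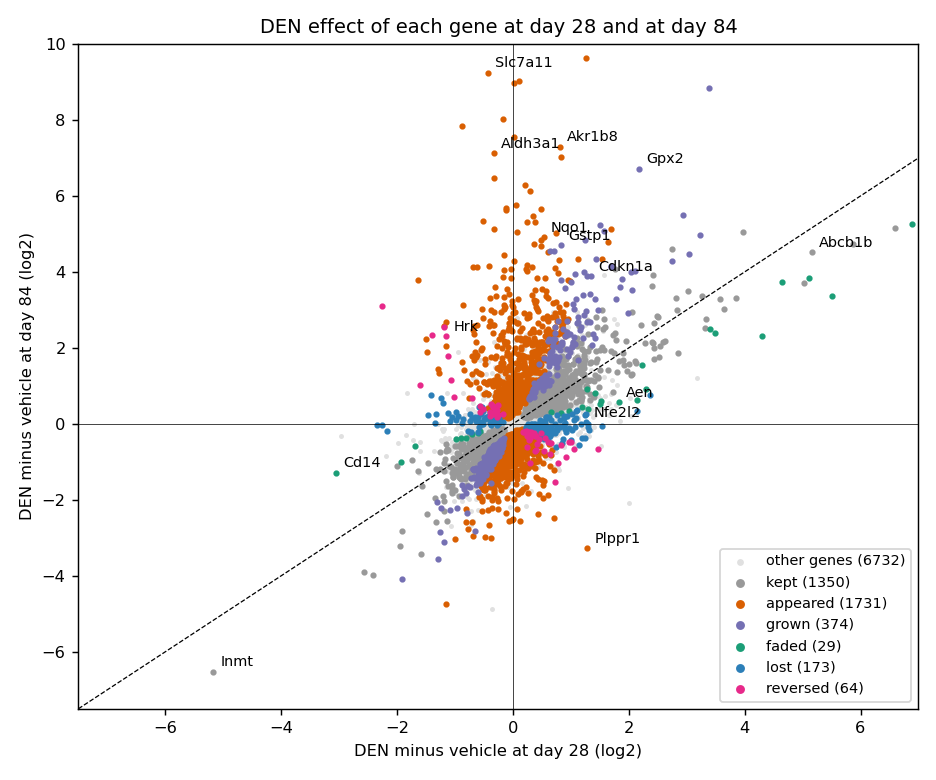
Effect of DEN at day 28 (horizontal, log2 DEN minus vehicle, 3 arrays against 3) against its effect at day 84 (vertical, same unit), 1 point per gene tested, coloured by the kind of change of the 2410 called genes. Late effects (appeared, 1731 genes) form vertical bands around 0 on the horizontal axis, and the 64 reversed genes lie in the upper left and lower right of the plot.

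The direction of these counts is relative to the 75th percentile and depends on it. Relative to the array's 8 bright spike-in probes, the 75th percentile itself was 0.41 higher (log2) in DEN than in vehicle arrays at day 28 and 0.72 higher at day 84. Scaling to the spike-ins therefore adds 0.31 to every difference and moves the median over all genes from -0.06 to 0.26. The split became 1908 genes higher and 232 lower. Scaling to each array's median over the tested probes instead gave 901 higher and 1804 lower, and quantile normalization gave 1043 and 1274. Directions below are relative to the 75th percentile, and a named gene whose call ended under spike-in scaling is marked as such. Counts of list members called higher or lower in the difference are to be read beside 9.36% and 13.7% of all genes tested. The level of a transcript in whole tissue also cannot tell apart fewer cells of a type and less RNA per cell.

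The DEN arrays made the larger move between the days in 1843 of the 2410 called genes and the vehicle arrays in 567. Levels in DEN arrays differed between day 28 and day 84 in 1916 of the 2410, and levels in vehicle arrays in 583. Among lost effects the vehicle arrays made the larger move in 94 genes and the DEN arrays in 79. The moves of both arms are therefore given for some genes below, and for the others only the effects at the 2 days. An effect that is higher at day 84 need not be a rise in the DEN arrays. In Nusap1, Rrm2, Tk1, Sqle and Cxcl13, for example, the vehicle arrays did not overlap between the days, whereas the DEN arrays did. Among the 2410 genes, DEN and vehicle arrays did not overlap in 2226 at day 84 and in 1244 at day 28, beside 66.5% and 44.3% of all genes tested.

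**Figure D2:**
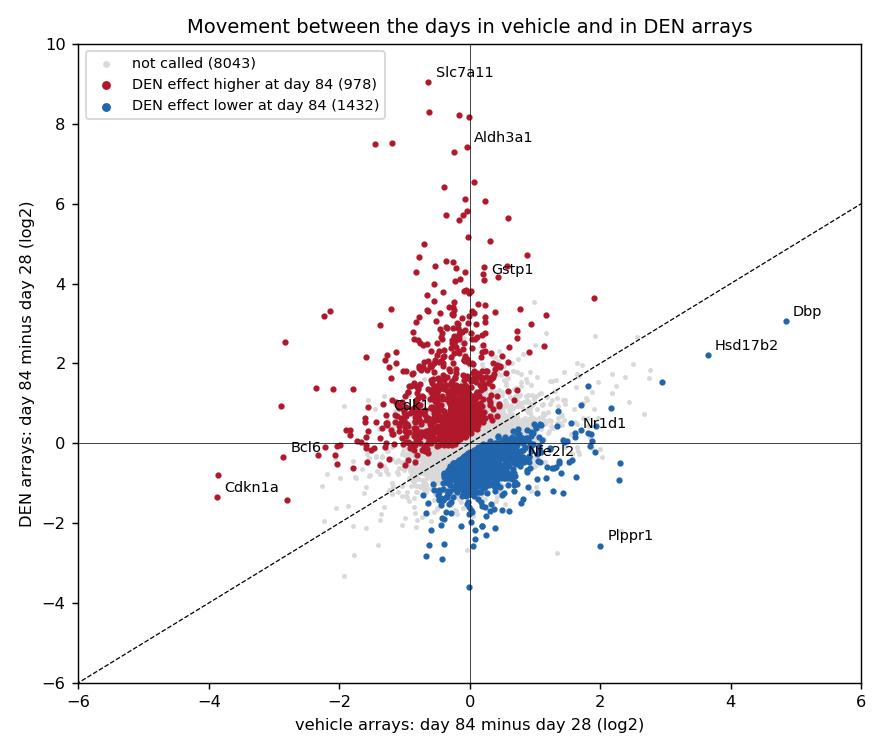
Change from day 28 to day 84 in the vehicle arrays (horizontal, log2) against the change in the DEN arrays (vertical, log2) for the 2410 called genes, and, in grey, for the genes not called, with 3 arrays per group and colour for the direction of the difference. Most coloured points spread along the vertical axis, and in 567 the vehicle change is the larger.

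Markers of preneoplastic liver foci and of fetal liver rose late and steeply. Of 26 listed genes measured, the effect of DEN was higher at day 84 in 18 and lower in none, with a median difference of 1.97 beside -0.06 over all genes tested. The 18 comprised 12 effects that appeared, 5 that had grown and Igf2, which was called at neither day. Leaving out single arrays gave 15 to 20 genes.

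Aldh3a1, an aldehyde dehydrogenase long used as a marker of altered hepatocytes, read -1.40, -1.50 and -1.50 in the vehicle arrays and -1.85, -1.64 and -1.89 with DEN at day 28. At day 84 it read -1.60, -1.47 and -1.46 with vehicle and 5.80, 6.32 and 4.72 with DEN. Only the day 84 DEN arrays were high, more than 6 log2 units above every other array. The effect moved from -0.33 ± 0.31 (estimate ± SE, n = 3 arrays per group) to 7.12 ± 0.31, a difference of 7.45 ± 0.43 (limma, adjusted p = 1.67e-05). The aldo-keto reductase Akr1b8 moved from 0.81 ± 0.30 to 7.29 ± 0.30 (difference 6.48 ± 0.43, limma adjusted p = 4.01e-05).

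Gstp1, the glutathione transferase by which rat foci are counted, read 4.34, 4.27 and 3.85 with vehicle and 5.06, 4.91 and 4.99 with DEN at day 28, then 4.30, 4.38 and 4.44 and 9.09, 9.0 and 9.15 at day 84. DEN and vehicle arrays did not overlap at either day. The effect on this probe grew from 0.84 ± 0.12, a fold of 1.79, to 4.71 ± 0.12 (difference 3.87 ± 0.16, limma adjusted p = 2.25e-06). Its unscaled late DEN signals were nearly equal, at 161459 to 162574, whereas those of the other 2 Gstp1 probes ranged from 78725 to 166732 and gave differences of 5.70 and 5.99. Apart from control spots, none was flagged as saturated by the scanner software. Whether the first probe was near its upper limit was not tested. Gpx2, an epithelial glutathione peroxidase, grew from 2.18 ± 0.32 to 6.72 ± 0.32. Akr7a3, an aflatoxin aldehyde reductase, grew from 1.44 ± 0.22 to 4.33 ± 0.22.

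Ggt1, which encodes γ-glutamyl transferase, read -3.29, -4.27 and -4.24 with vehicle and 1.67, 2.73 and 1.08 with DEN at day 84, while at day 28 it read -3.06, -2.36 and -4.25 with vehicle and -3.06, -2.79 and -3.65 with DEN. The late DEN arrays stood above all the others, of which 5 of 9 were well above background. Its effect was 0.06 ± 0.53 at day 28 and 5.76 ± 0.53 at day 84 (difference 5.71 ± 0.75, limma adjusted p = 0.00234). H19, an imprinted fetal transcript, read 2.81, 4.41 and 2.31 in the late DEN arrays and 0.01, -0.87 and -2.62 in the vehicle arrays of day 28, a wide spread among controls. Its difference was 5.45 ± 0.93 (limma adjusted p = 0.00554). The imprinted neighbour Igf2 moved from -1.14 ± 0.38 to 0.82 ± 0.38, and its call (limma adjusted p = 0.0289) was lost on leaving out any of 7 of the 12 arrays. Afp, the fetal counterpart of albumin, had an effect of 0.05 ± 0.13 at day 28 and -0.09 ± 0.13 at day 84, with no call at either. Aldh1a1, a retinal dehydrogenase, was already high at day 28 (3.58 ± 0.24) and at day 84 (3.29 ± 0.24), with no call in the difference (-0.29 ± 0.34).

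**Figure D3:**
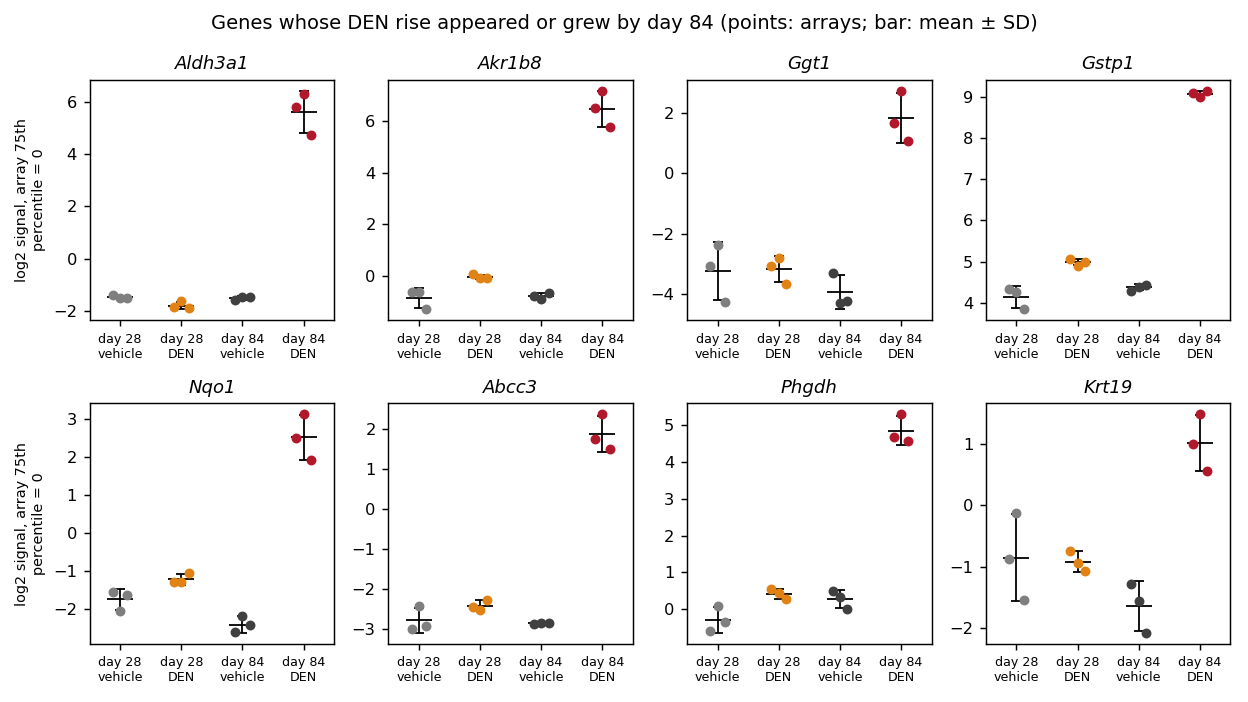
Levels (vertical, log2 relative to the array's 75th percentile) of 8 genes by array, with the 3 arrays of each group as points and their mean ± SD as a bar with whiskers. In each panel the day 84 DEN arrays stand above the other 9, as for Gstp1 at 9.0 to 9.15 against at most 5.06.

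Several genes were near or below background in a group and rose by a margin that has only a lower bound. Slc7a11, the cystine transporter that feeds glutathione synthesis, was not well above background in any array of the other 3 groups and read 3.50, 4.23 and 2.75 with DEN at day 84. It was at least 153-fold higher than in the vehicle arrays and at least 149-fold higher than with DEN at day 28 (limma adjusted p of the difference = 1.19e-05). The 3 Slc7a11 probes gave fitted differences of 3.94 to 9.67, and these bounds are for the probe used. The bound sets the dim group at the lowest signal of a probe well above background on each array. Bex1, a small adaptor protein of neurons and developing tissue, was at least 371-fold higher than with vehicle at day 84. Ugt2b7, a glucuronosyltransferase, was at least 167-fold higher (limma adjusted p of the difference = 2.25e-06). Pcp4, a calmodulin-binding protein, was at least 191-fold higher, Defb1, an epithelial antimicrobial peptide, at least 52-fold, and Dnaaf1, a factor for assembly of ciliary dynein arms, at least 73.3-fold. Cyp2c24, a cytochrome P450, was already higher with DEN at day 28 (3.38 ± 0.30, fitted). At day 84 it was at least 108-fold higher than with vehicle, and the vehicle arrays had moved by -2.14 (fitted) between the days. Its 2 probes gave fitted differences of 3.46 and 5.47.

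NRF2 is a transcription factor that oxidants and electrophiles release from KEAP1, and its targets make and use glutathione and NADPH. Of 30 listed targets measured, the DEN effect was higher at day 84 in 22 and lower in 2, Nfe2l2 and Ftl1. The call of Ftl1, a ferritin chain, ended under spike-in scaling (-0.07) and on leaving out any of 7 of the 12 arrays, and its 5 probes disagreed in sign. The median difference was 0.83. Leaving out single arrays gave 18 to 23 higher. Nqo1, a quinone reductase, read -1.53, -2.05 and -1.63 with vehicle and -1.29, -1.29 and -1.04 with DEN at day 28, then -2.60, -2.17 and -2.42 and 2.49, 3.12 and 1.93. The groups were separate at both days, with a far wider gap at day 84. The effect moved from 0.53 ± 0.26 to 4.91 ± 0.26 (difference 4.38 ± 0.37, limma adjusted p = 0.000245).

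Gclc, the catalytic subunit of the enzyme that begins glutathione synthesis, moved from 0.27 ± 0.17 to 2.81 ± 0.17. Txnrd1, thioredoxin reductase, moved from -0.27 ± 0.17 to 1.46 ± 0.17. Gsta2, an alpha-class glutathione transferase, was lower with DEN at day 28 (-0.35 ± 0.09) and higher at day 84 (0.48 ± 0.09). The call in the Gsta2 difference ended in both fits of all 18 arrays. Hmox1, haem oxygenase and a common readout of NRF2, gave 0.38 ± 0.10 and 0.44 ± 0.10, with no call in the difference (0.06 ± 0.14). Keap1 was not called at either day.

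Nfe2l2, the gene for NRF2 itself, went the other way. It read 3.50, 3.54 and 3.66 with vehicle and 5.23, 4.70 and 4.58 with DEN at day 28, and 4.37, 4.38 and 4.27 with vehicle and 4.49, 4.28 and 4.36 with DEN at day 84. The groups were separate at day 28 and overlapped at day 84. The effect of 1.27 ± 0.14 at day 28 was 0.04 ± 0.14 at day 84 (difference -1.23 ± 0.20, limma adjusted p = 0.00493). Both arms moved between the days, the vehicle arrays by 0.77 and the DEN arrays by -0.46.

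The 3 NRF2 targets printed here are those called higher that hold the core letters of the antioxidant response element, to which NRF2 binds, in the 250 bases before the gene start. The strands below come from RefSeq promoters of rat build GRCr8, read 5′ to 3′ toward the gene, with matches to TGACNNNGC in capitals. They are Gstp1 at chr1:210769706-210769955 (minus strand), Ugdh at chr14:43202268-43202517 (plus strand) and Me1 at chr8:96540245-96540494 (minus strand), and they show how near the start the letters lie.
Gstp1: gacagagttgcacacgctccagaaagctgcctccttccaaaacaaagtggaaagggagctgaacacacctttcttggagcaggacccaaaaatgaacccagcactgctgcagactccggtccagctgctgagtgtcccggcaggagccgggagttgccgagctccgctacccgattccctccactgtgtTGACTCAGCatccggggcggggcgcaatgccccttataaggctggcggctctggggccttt
Ugdh: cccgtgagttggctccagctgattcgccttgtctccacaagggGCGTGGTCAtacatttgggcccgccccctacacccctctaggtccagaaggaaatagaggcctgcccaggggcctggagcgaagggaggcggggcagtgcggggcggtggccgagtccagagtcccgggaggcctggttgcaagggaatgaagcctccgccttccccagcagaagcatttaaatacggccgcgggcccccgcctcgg
Me1: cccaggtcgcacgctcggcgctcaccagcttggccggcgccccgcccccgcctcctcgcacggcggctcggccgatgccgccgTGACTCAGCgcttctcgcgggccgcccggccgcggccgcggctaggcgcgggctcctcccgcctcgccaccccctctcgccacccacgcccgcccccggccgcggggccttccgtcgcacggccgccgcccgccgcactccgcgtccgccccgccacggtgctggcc
The match starts 61 bases before the Gstp1 start, 207 before Ugdh, where it lies on the opposite strand, and 167 before Me1. In Gstp1 and Me1 its first letters also spell TGACTCA, the site of AP-1 factors. Searched on both strands, the letters were in 3 of 19 promoters of listed targets called higher (15.8%), in 2 of 6 of those not called higher (33.3%) and in 1071 of 8595 promoters of genes tested (12.5%). The share among the called targets is near that of all genes tested. Ugdh, which makes UDP-glucuronic acid, moved from -0.18 ± 0.21 to 1.63 ± 0.21 (difference 1.81 ± 0.29). Me1, malic enzyme, moved from -0.44 ± 0.24 to 0.79 ± 0.24, and its call in the difference was lost on leaving out any of 8 of the 12 arrays.

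Genes of serine and asparagine synthesis rose late as well. They belong to a list of 26 measured genes of the amino acid response factor ATF4 and of endoplasmic reticulum stress. In it 7 effects were higher at day 84 and 2 lower, beside 9.36% and 13.7% of all genes tested. The median difference was 0.17. Phgdh, the first enzyme of serine synthesis, read 0.50, 0.34 and 0.02 with vehicle and 4.68, 5.30 and 4.56 with DEN at day 84. At day 28 it read -0.60, 0.09 and -0.36 and 0.55, 0.43 and 0.28. The groups did not overlap at either day, with a small gap at day 28. The effect grew from 0.71 ± 0.22 to 4.56 ± 0.22 (difference 3.85 ± 0.31, limma adjusted p = 0.000194). Psat1, the next enzyme, moved from -0.15 ± 0.25 to 3.12 ± 0.25, and Asns, asparagine synthetase, from 0.22 ± 0.12 to 2.10 ± 0.12. Atf4 itself was lower with DEN at both days (-0.52 ± 0.11 and -0.59 ± 0.11). The chaperone Hspa5 gave -0.22 ± 0.09 and -0.40 ± 0.09, with no call in the difference.

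Export pumps of conjugated compounds were among the late rises. Of 12 measured drug export transporters, 4 were higher at day 84 and 1, Abcc6, was lower. Abcc3 moved from 0.37 ± 0.21 to 4.75 ± 0.21 (difference 4.38 ± 0.30, limma adjusted p = 4.76e-05), Abcc4 from -0.11 ± 0.15 to 1.82 ± 0.15 and Abcc1 from 0.32 ± 0.17 to 1.79 ± 0.17. Abcg8, a sterol exporter, was well above background only in the day 84 DEN arrays, where it was at least 1.25-fold higher than with vehicle. Its call ended under normexp background correction. Abcc6 fell with DEN by day 84 (-1.28 ± 0.13). Abcb1b, the multidrug pump that p53 and stress induce in rat liver, differed from these in time. It already read 6.38, 6.12 and 6.32 with DEN against 0.97, 1.12 and 1.26 with vehicle at day 28. Its effect was 5.16 ± 0.15 at day 28 and 4.52 ± 0.15 at day 84, with no call in the difference (-0.64 ± 0.21, limma adjusted p = 0.0519).

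Transcripts of bile ducts and of duct-like cells rose late. Of 13 measured markers of cholangiocytes and ductular cells, 7 were higher at day 84 and none lower, with a median difference of 1.30. None of the 13 was called at day 28. Without replicate 2 of vehicle at day 84, 4 of the 7 calls remained in number. Their summed linear level was 6.18 to 8.80 and 6.23 to 7.44 in the vehicle arrays of the 2 days, 7.64 to 8.72 with DEN at day 28 and 15.4 to 41.6 with DEN at day 84. Krt19, a duct keratin, read -0.88, -0.13 and -1.54 with vehicle and -0.74, -0.94 and -1.07 with DEN at day 28, then -1.28, -1.55 and -2.07 and 1.0, 1.48 and 0.55. Only the day 84 groups were separate. Its effect moved from -0.07 ± 0.35 to 2.65 ± 0.35 (difference 2.71 ± 0.49, limma adjusted p = 0.00713). Epcam, a surface adhesion protein, moved from 0.41 ± 0.15 to 1.53 ± 0.15 and Cd24 from 0.00 ± 0.43 to 2.92 ± 0.43. Cftr, the chloride channel of bile ducts, was well above background on 1 of the 9 other arrays and rose with DEN at day 84 (3.29 ± 0.57, fitted). Spp1 and Aqp1, which ducts also express, were not called. Epcam, Cd24, Krt19 and Prom1 are also among the listed markers of foci. The part of duct-like cells in the rises of foci markers was not tested.

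Genes of cell division were higher with DEN in part at day 28 and throughout at day 84. Of 23 measured genes of mitosis and the spindle, 23 were higher with DEN at day 84 and 7 at day 28. Over all 10453 genes tested, 2409 were higher at day 84 and 1088 at day 28. The difference was higher in 13 of the 23 and lower in none, with a median of 1.44. Without replicate 3 of DEN at day 28 only 5 were called higher, and without replicate 1 of that group 18 were. Mki67, the proliferation antigen, read 0.65, 0.50 and 0.59 with vehicle and 1.81, 1.41 and 1.0 with DEN at day 28, then -0.11, -0.33 and 0.19 with vehicle and 1.98, 2.16 and 1.80 with DEN. Vehicle and DEN arrays were separate at both days. The effect grew from 0.82 ± 0.19 to 2.06 ± 0.19 (difference 1.24 ± 0.28, limma adjusted p = 0.0136).

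Both arms contributed to that growth. Mki67 fell by 0.67 in the vehicle arrays between the days (limma adjusted p = 0.0442) and moved by 0.58 in the DEN arrays (adjusted p = 0.036). Cdk1, the kinase that drives mitosis, read 1.71, 1.65 and 1.52 and 2.98, 2.75 and 1.76 at day 28, then 0.22, -0.12 and 0.93 and 3.18, 3.50 and 2.91. Its vehicle arrays moved by -1.28 (limma adjusted p = 0.0277), while the DEN arrays moved by 0.70 (adjusted p = 0.111). The difference for Cdk1 was 1.98 ± 0.47 (limma adjusted p = 0.017). Kif23, a kinesin of cytokinesis, was not well above background in the day 84 vehicle arrays and was at least 5.39-fold higher with DEN there (limma adjusted p of the difference = 0.00373). Nusap1, a spindle protein, moved from 0.68 ± 0.24 to 2.41 ± 0.24.

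Promoters of mitotic genes often hold the cell cycle genes homology region, at which the DREAM and MuvB complexes act, with the core letters TTTGAA. The RefSeq promoters of Kif23 at chr8:71320585-71320834 (minus strand) and Mki67 at chr1:199952594-199952843 (minus strand) of GRCr8 are printed 5′ to 3′ toward the gene as 2 examples from members called in the difference, with TTTGAA in capitals.
Kif23: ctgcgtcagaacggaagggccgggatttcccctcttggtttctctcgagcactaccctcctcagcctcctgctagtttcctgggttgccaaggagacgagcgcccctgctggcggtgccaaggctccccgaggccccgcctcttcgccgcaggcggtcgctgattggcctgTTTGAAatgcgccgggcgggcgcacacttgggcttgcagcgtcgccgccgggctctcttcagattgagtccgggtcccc
Mki67: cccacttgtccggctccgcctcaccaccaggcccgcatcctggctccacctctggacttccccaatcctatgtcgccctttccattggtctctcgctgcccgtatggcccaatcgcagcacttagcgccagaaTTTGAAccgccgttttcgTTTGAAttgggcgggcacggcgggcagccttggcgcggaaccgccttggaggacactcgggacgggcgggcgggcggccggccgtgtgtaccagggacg
The letters start 79 bases before the Kif23 start and 117 and 99 bases before the Mki67 start. Searched on both strands in the 250 bases, they were in 5 of 10 promoters of mitotic members called higher (50%), in 2 of 8 of those not called higher (25%) and in 914 of 8595 promoters of genes tested (10.6%). These shares are a description of the letters and not of binding.

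Replication genes gave 7 higher and none lower of 25 measured, with a median difference of 0.35. Rrm2 and Tk1, which supply deoxynucleotides, moved from 1.03 ± 0.32 to 3.16 ± 0.32 and from 0.19 ± 0.15 to 1.58 ± 0.15. The 4 Rrm2 probes gave differences of 0.48 to 2.30. Pcna, the polymerase clamp, moved from 0.09 ± 0.09 to 0.68 ± 0.09. The helicase subunits Mcm2 and Mcm3 had no call in the difference (0.21 ± 0.19 and 0.38 ± 0.25). Of 22 measured DNA repair genes, 5 were higher at day 84 and 2 lower, beside 9.36% and 13.7% of all genes tested. Without replicate 1 of DEN at day 28 only 2 were higher. Xrcc5, which binds broken DNA ends, moved from 0.02 ± 0.10 to 0.65 ± 0.10. Ung, uracil glycosylase, moved from -0.05 ± 0.12 to -1.0 ± 0.12, with the vehicle arrays rising by 0.84.

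Of 18 measured G1 cyclins, kinases and inhibitors, 7 were higher at day 84 and 1, Cdk2, was lower, a call that spike-in scaling ended (-0.50). Cdkn1a, the p21 inhibitor and a p53 target, read 5.83, 5.81 and 5.79 with vehicle and 7.24, 7.0 and 7.25 with DEN at day 28, and 2.04, 2.06 and 1.70 and 5.92, 5.33 and 6.19 at day 84. Its highest level with DEN was at day 28. The effect still grew from 1.35 ± 0.19 to 3.88 ± 0.19 (difference 2.53 ± 0.27, limma adjusted p = 0.000811), since the vehicle arrays fell by 3.88 between the days and the DEN arrays by 1.35. Its probes ranged from -0.28 to 2.53 in the difference, so they disagree in sign.

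Cdkn2a, which encodes the p16 and ARF tumour suppressors, read -3.10, -3.47 and -3.73 with vehicle and -4.54, -4.65 and -4.68 with DEN at day 28, then -2.76, -2.55 and -3.69 and -0.39, 0.22 and -1.22. It read lower with DEN at day 28 and higher at day 84, without overlap in either case. At day 28 only 1 of 3 vehicle arrays and no DEN array was well above background, so the early fall lies near background. With DEN it was at least 9.63-fold higher at day 84 than at day 28 (limma adjusted p of the difference = 0.00279). Cdkn2c moved from 0.41 ± 0.16 to 1.93 ± 0.16, and Cdk6, a G1 kinase, from -0.50 ± 0.24 to 1.11 ± 0.24. Cdkn2c was not well above background on every array, and its difference of 1.51 was as low as 0.49 among the settings run. Ccnd1, cyclin D1, gave 1.12 ± 0.16 and 0.79 ± 0.16, with no call in the difference.

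Genes of mature hepatocyte function were lower with DEN in part at day 28 and mostly at day 84, relative to the 75th percentile. Of 32 measured genes of secreted plasma proteins and hepatocyte identity, 17 effects were lower at day 84 and none higher, with a median difference of -0.44. Of the 17, 8 were falls that appeared and 9 were falls that had grown. Within days, 15 of the 32 were lower with DEN at day 28 and 29 at day 84. Over all 10453 genes tested, 1329 were lower at day 28 and 3689 at day 84. Scaling to the spike-ins left none of the 17 calls, with a median of -0.13, and leaving out replicate 2 of vehicle at day 84 left 7. Alb, albumin, read 10.32, 10.30 and 10.25 with vehicle and 9.93, 10.02 and 9.93 with DEN at day 28, then 9.98, 9.98 and 9.93 and 9.33, 9.08 and 9.32. DEN arrays were lower at both days without overlap. The effect moved from -0.33 ± 0.07 to -0.72 ± 0.07 (difference -0.39 ± 0.10, limma adjusted p = 0.0248), and the call was lost without replicate 2 of DEN at day 28 or replicate 1 or 2 of vehicle at day 84, and under spike-in scaling (-0.07). Ttr, transthyretin, gave -0.63 ± 0.13, Fgg, a fibrinogen chain, -0.54 ± 0.12 and Prox1, a hepatocyte transcription factor, -0.59 ± 0.11. All 3 calls ended under spike-in scaling (-0.32, -0.22 and -0.27). Hnf4a, the leading hepatocyte transcription factor, was lower with DEN at both days and had no call in the difference (0.06 ± 0.16). Of the 8 hepatocyte markers 5 were lower, but 2 without replicate 1 of vehicle at day 84, 2 under quantile normalization and 0 under spike-in scaling. Apoa1, the main HDL protein, and Cps1, the entry enzyme of the urea cycle, had no call (-0.09 ± 0.17 and -0.22 ± 0.21).

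Some falls were called under each scaling and without each array in turn. Aox3, an aldehyde oxidase, read 2.37, 2.36 and 2.35 with vehicle and 1.19, 1.1 and 1.32 with DEN at day 28, then 2.71, 2.50 and 1.86 and -1.45, -4.06 and -1.65. The late DEN arrays were all below the other 9, with replicate 2 far lower than its 2 fellows. The effect moved from -1.16 ± 0.56 to -4.74 ± 0.56 (difference -3.58 ± 0.79, limma adjusted p = 0.0133). Inhba, the activin A subunit, moved from -0.38 ± 0.29 to -3.02 ± 0.29, and Paqr9, a progestin and adipoQ receptor family member, from -0.01 ± 0.24 to -2.54 ± 0.24. Lepr, the leptin receptor, grew from -0.65 ± 0.19 to -2.82 ± 0.19. Agxt, a glyoxylate-clearing aminotransferase of periportal hepatocytes, read 4.63, 4.93 and 4.80 with vehicle and 3.53, 2.90 and 3.65 with DEN at day 84, and its effect moved from -0.07 ± 0.19 to -1.43 ± 0.19 (difference -1.36 ± 0.26, limma adjusted p = 0.00876).

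Of 21 measured genes of bile acid synthesis and transport, 4 were higher at day 84 and 7 lower. Without replicate 2 of vehicle at day 84 the lower count was 4, and spike-in scaling gave 5 higher and 4 lower. Cyp8b1, which sets the share of cholic acid, read 4.42, 3.20 and 4.0 with vehicle and 3.76, 3.59 and 3.48 with DEN at day 28, then 5.41, 5.26 and 5.63 and 3.32, 2.64 and 3.62. The groups overlapped at day 28 and were separate at day 84. The effect moved from -0.26 ± 0.31 to -2.24 ± 0.31 (difference -1.98 ± 0.43, limma adjusted p = 0.0132), with the vehicle arrays rising by 1.56 between the days. Slco1a1, a sinusoidal uptake carrier, moved from -0.31 ± 0.19 to -1.57 ± 0.19, and Slc27a5, which activates bile acids for conjugation, from -0.40 ± 0.20 to -1.66 ± 0.20. The 4 higher were the exporters Abcc3 and Abcc4, Ephx1, and Nr0b2, the repressor SHP. Nr0b2 had been lower with DEN at day 28 (-2.25 ± 0.41) and was not called at day 84 (-0.02 ± 0.41), with the vehicle arrays moving by -1.60. The Nr0b2 call was lost without replicate 1 of DEN at day 28 or replicate 2 of DEN at day 84. Cyp7a1, the rate-limiting enzyme of the main route, was not called (1.38 ± 0.58).

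Xenobiotic cytochrome P450 enzymes gave 8 lower and 3 higher of 29 measured, beside 13.7% and 9.36% of all genes tested. Their median difference was -0.52. Only 1 was lower without replicate 2 of DEN at day 28 and 15 were without replicate 3 of DEN at day 84, and spike-in scaling left 1 lower and 5 higher. Cyp2e1, the enzyme known for activating DEN, had effects of 0.20 ± 0.21 at day 28 and -0.85 ± 0.21 at day 84, and its call in the difference was lost under spike-in scaling and on leaving out any of 9 of the 12 arrays. Cyp2f4 fell further with DEN, from -0.46 ± 0.07 to -1.16 ± 0.07, under each setting tried. Cyp2c12, the female-predominant form, grew from 1.85 ± 0.14 to 3.60 ± 0.14 (difference 1.75 ± 0.20, limma adjusted p = 0.0014).

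Genes expressed more in male than in female rat liver, a pattern set by pulsed growth hormone, were lower with DEN at day 84 in 16 of 16 measured and at day 28 in 5. Over all 10453 genes tested, 3689 were lower at day 84 and 1329 at day 28. In the difference, 6 of the 16 were lower and none higher, with a median of -1.02. Without replicate 3 of vehicle at day 28 the count was 2, and without replicate 3 of DEN at day 84 it was 13. The Slco1a1 fall above is one of the 6. Cyp2c11, the main male form, moved from -0.79 ± 0.29 to -1.93 ± 0.29 and did not pass in the difference (-1.14 ± 0.41). Of 13 genes higher in females, 3 were higher at day 84 and 2 lower. The lower pair, Sult2a1 and Cyp2c7, run against the list's name, and the Cyp2c7 call ended under spike-in scaling and on leaving out any of 6 of the 12 arrays. Sult2a1, a sulfotransferase of steroids and bile acids, moved from 0.01 ± 0.35 to -2.50 ± 0.35. Its call in the difference ended in the fit of all 18 arrays (limma adjusted p = 0.0708). Igfals, the liver-made subunit that carries IGF1 in blood, read 5.17, 5.13 and 4.89 with vehicle and 3.94, 3.25 and 3.90 with DEN at day 84, and moved from -0.15 ± 0.16 to -1.37 ± 0.16 (difference -1.21 ± 0.23, limma adjusted p = 0.00844). Ghr, the growth hormone receptor, was lower with DEN at both days and had no call in the difference (-0.82 ± 0.29).

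Genes of fatty acid oxidation fell late. Of 30 measured targets of PPARalpha and oxidation genes, 11 were lower at day 84 and 2, Acot1 and Acaa2, higher, with a median difference of -0.48. Without replicate 2 of vehicle at day 84, 3 were lower, and without replicate 3 of DEN at day 84, 17 were, and spike-in scaling gave 2 lower and 4 higher. Crat, a carnitine acyltransferase, read 2.85, 3.63 and 3.65 with vehicle and 4.40, 4.19 and 4.16 with DEN at day 28, then 4.19, 4.37 and 3.98 and 3.71, 3.59 and 4.06. A rise at day 28 (0.87 ± 0.21) was no longer called at day 84 (-0.39 ± 0.21), and the vehicle arrays had risen by 0.80. Acot1, a cytosolic thioesterase, was not well above background in the other 3 groups and was at least 4.28-fold higher with DEN than with vehicle at day 84. Pdk4, which spares glucose during fasting, moved from -0.10 ± 0.26 to -1.56 ± 0.26, and its call was lost without replicate 2 or 3 of DEN at day 28 or replicate 1 or 2 of vehicle at day 84.

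Of 24 measured genes of cholesterol synthesis and uptake, 17 were lower with DEN at day 28 and 14 at day 84, 10 of them at both days with no call in the difference. Over all 10453 genes tested, 1329 were lower at day 28 and 3689 at day 84. The difference was higher in 4 of the 24 and lower in 3, beside 9.36% and 13.7% of all genes tested. Under spike-in scaling it was lower in 1. Without replicate 2 of vehicle at day 84, 2 were higher. Sqle, squalene epoxidase, moved from -0.75 ± 0.25 to 1.04 ± 0.25 (difference 1.79 ± 0.36, limma adjusted p = 0.00967). Lipid droplet genes moved in both directions. Plin2, the main hepatocyte droplet coat, moved from 0.08 ± 0.14 to -0.95 ± 0.14, whereas Cidea moved from -1.15 ± 0.44 to 2.04 ± 0.44 and Fabp4, a fatty acid carrier, was at least 24.1-fold higher than with vehicle at day 84.

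Of the targets of p53, the transcription factor that DNA damage activates, most were higher with DEN at each day, and in some the effect was lower at day 84. Of 29 measured, 19 were higher and 3 lower with DEN at day 28, and 19 were higher and 6 lower at day 84. The number called at both days with no call in the difference was 13, which does not show equal effects. Over all 10453 genes tested, 1088 were higher and 1329 lower at day 28, and 2409 and 3689 at day 84. Of them, 1350 were called at both days with no call in the difference. Ccng1, cyclin G1, read 0.91, 0.77 and 0.85 with vehicle and 3.48, 3.28 and 3.56 with DEN at day 28, then 0.65, 0.85 and 0.97 and 3.02, 2.72 and 3.17. The groups were far apart at both days. Its effect was 2.60 ± 0.13 and then 2.15 ± 0.13, and the difference did not pass (-0.45 ± 0.18, limma adjusted p = 0.0928). Mdm2, the ubiquitin ligase of p53, gave 1.90 ± 0.11 and 1.69 ± 0.11 (difference -0.22 ± 0.15).

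The difference was lower in 9 of the 29 and higher in 4, which were Cdkn1a, Ddit4, Plk3 and Ephx1, with a median of -0.37. Aen, a p53-induced nuclease of apoptosis, read 2.94, 3.21 and 3.13 with vehicle and 5.0, 4.76 and 5.01 with DEN at day 28, then 3.49, 3.68 and 3.49 and 4.25, 3.81 and 4.31. Groups were separate at both days, by a wide gap at day 28 and a narrow one at day 84. The effect faded from 1.83 ± 0.14 to 0.57 ± 0.14 (difference -1.26 ± 0.19, limma adjusted p = 0.00388). Bbc3, the PUMA trigger of apoptosis, read 2.30, 1.49 and 2.32 and 3.50, 3.28 and 3.24 at day 28 and 2.90, 2.70 and 2.50 and 2.86, 2.40 and 2.82 at day 84. Its effect of 1.30 ± 0.22 was lost (-0.01 ± 0.22, limma adjusted p of the difference = 0.0175). The DEN arrays of Bbc3 and Aen moved by -0.65 and -0.80 between the days, and the vehicle arrays by 0.66 and 0.46.

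Pidd1, a p53-induced death domain protein, moved from 0.76 ± 0.13 to -0.17 ± 0.13, a call that ended under spike-in scaling (-0.62). Mgmt, which removes alkyl groups from guanine, faded from 2.23 ± 0.13 to 1.55 ± 0.13, and that call was lost under spike-in scaling and on leaving out any of 5 of the 12 arrays. Plk3, a stress kinase, reversed from -1.01 ± 0.27 to 0.71 ± 0.27, and Ddit4, an inhibitor of mTORC1, moved from -0.70 ± 0.33 to 1.77 ± 0.33, with vehicle arrays moving by -0.76 and -1.56. Ephx1, microsomal epoxide hydrolase, grew from 1.42 ± 0.12 to 2.26 ± 0.12. Spike-in scaling left 4 of the list higher and 2 lower.

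The largest fading rise among those named was that of Nhej1, a factor of DNA end joining, with -1.69, -1.81 and -1.41 against 2.94, 2.41 and 2.66 at day 28 and -1.31, -1.22 and -1.43 against 1.30, 0.33 and 1.33 at day 84. DEN arrays were higher at both days without overlap. The effect faded from 4.31 ± 0.25 to 2.30 ± 0.25 (difference -2.0 ± 0.35, limma adjusted p = 0.00609), although the gene's probes disagreed in sign. Ascl2, a transcription factor of the Wnt pathway in gut stem cells, read -0.83, -1.05 and -0.93 and 1.40, 1.13 and 1.07 at day 28, then -0.15, -0.29 and -0.27 and 0.63, 0.10 and 0.44. It faded from 2.14 ± 0.13 to 0.63 ± 0.13 (difference -1.51 ± 0.19, limma adjusted p = 0.0019). Axin2, a feedback inhibitor and general readout of Wnt signalling, read -1.37, -2.17 and -1.96 and -0.63, -0.71 and -0.76 at day 28, then -1.92, -1.71 and -1.82 and -2.52, -2.89 and -1.68. Its rise of 1.14 ± 0.28 was lost (-0.55 ± 0.28, difference -1.69 ± 0.40, limma adjusted p = 0.017). The vehicle arrays of Axin2 moved by 0.02 and the DEN arrays by -1.67. Among 18 pericentral genes, where Wnt signalling is strongest, 5 differences were lower and 1, the ammonium transporter Rhbg, was higher. The lower count was 1 without replicate 1 of DEN at day 28 and 9 without replicate 3 of DEN at day 84, and spike-in scaling gave 2 lower and 2 higher. Glul, glutamine synthetase, was not called in the difference (-0.58 ± 0.24).

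Some transcripts of lymphocytes that were higher with DEN at day 28 lay nearer the controls at day 84. Of 17 measured markers of T and NK cells, 9 were higher with DEN at day 28 and 7 at day 84. Over all 10453 genes tested, 1088 were higher at day 28 and 2409 at day 84. The difference was lower in 6 of the 17 and higher in none, with a median of -0.41. Without replicate 1 of vehicle at day 28 the count was 2, and spike-in scaling also gave 2. The summed linear level was 23.6 to 31.6 with vehicle and 39.1 to 39.5 with DEN at day 28, and 21.3 to 25.6 and 20.4 to 28.1 at day 84. Cd3d, a subunit of the T cell receptor complex, read -0.65, -0.70 and -0.42 with vehicle and 0.82, 0.70 and 0.61 with DEN at day 28, then -0.15, -0.38 and -0.50 and 0.04, -0.07 and 0.19. Groups were separate at both days, narrowly so at day 84. The effect faded from 1.30 ± 0.11 to 0.40 ± 0.11 (difference -0.90 ± 0.16, limma adjusted p = 0.00615). Cd8b, the cytotoxic T cell co-receptor, faded from 2.30 ± 0.21 to 0.93 ± 0.21, with 1 of 3 vehicle arrays of day 28 well above background. The 2 Cd8b probes gave differences of -1.38 and -0.30. Zap70 and Gzmk kept their rises.

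Chemokines and interferon genes were more often lower than higher in the difference, relative to the 75th percentile, as were all genes tested (13.7% and 9.36%). Of 25 measured chemokines and receptors, 11 were higher and 1 lower with DEN at day 28, and 9 and 3 at day 84. Over all 10453 genes tested, 1088 were higher and 1329 lower at day 28, and 2409 and 3689 at day 84. In the difference, 5 of the 25 were lower and 1, Cxcl13, higher. Under spike-in scaling 1 was lower and 4 higher, and without replicate 2 of vehicle at day 84, 2 were lower. Ccl9 went from 0.54 ± 0.08 to 0.04 ± 0.08, a call that ended under spike-in scaling (-0.18). Cxcl13, the B cell attractant, moved from -0.13 ± 0.38 to 2.09 ± 0.38 (difference 2.22 ± 0.54, limma adjusted p = 0.0184). Cxcl13 was not well above background on every array, and its difference was as low as 0.96 among the settings run. Of 29 interferon-stimulated genes, 11 were lower and none higher, with a median of -0.39. Under spike-in scaling 2 were lower and 1 higher, and without replicate 2 of vehicle at day 84, 5 were lower. Isg15, a ubiquitin-like antiviral protein, read 3.09, 2.90 and 3.12 with vehicle and 3.95, 3.78 and 4.04 with DEN at day 28, then 3.29, 3.28 and 2.88 and 3.15, 3.18 and 3.04. A rise at day 28 without overlap gave way to overlapping groups. The effect of 0.88 ± 0.12 was lost (-0.03 ± 0.12, difference -0.91 ± 0.17, limma adjusted p = 0.00709), a call that ended in the fit over all 18 arrays. Oas1a, an RNA sensor, moved from -0.28 ± 0.14 to -1.25 ± 0.14.

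Antigen presentation by MHC class II kept its rise. Of 8 measured genes, 6 were called higher with DEN at both days and none in the difference, which had a median of -0.01, or 0.30 under spike-in scaling. Over all 10453 genes tested, 567 were kept rises. Cd74, the invariant chain, read 4.25, 4.43 and 5.15 with vehicle and 5.59, 5.38 and 5.73 with DEN at day 28, then 4.60, 4.71 and 4.12 and 5.50, 5.43 and 5.36. DEN arrays were higher at both days without overlap. Its difference was 0.00 ± 0.32, against effects of 0.96 and 0.95.

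Cd14, the lipopolysaccharide co-receptor of macrophages and hepatocytes, was a fall that faded. It read 4.25, 3.84 and 3.71 with vehicle and 0.56, 1.13 and 0.96 with DEN at day 28, then 3.14, 2.96 and 3.32 and 2.0, 2.11 and 1.44. Groups were separate at both days, by a wider margin at day 28. The effect went from -3.05 ± 0.21 to -1.29 ± 0.21 (difference 1.76 ± 0.30, limma adjusted p = 0.00563). Macrophage markers as a list did not follow: of 21 measured, 1 (Cd14) was higher and 1 (Clec4f) lower, the latter not without replicate 2 of vehicle at day 84 nor under spike-in scaling. Their summed level was 374 to 456 with vehicle and 453 to 477 with DEN at day 28, and 346 to 390 and 282 to 351 at day 84. Markers of sinusoidal endothelium gave 4 lower and none higher of 12, with 1 lower without replicate 2 of vehicle at day 28 and none under spike-in scaling. Kdr, the VEGF receptor, moved from -0.04 ± 0.10 to -0.76 ± 0.10. Falls of day 28 that were lost included those of Ip6k2, an inositol phosphate kinase (-0.74 ± 0.10 to 0.08 ± 0.10), Plce1, a phospholipase C (-0.64 ± 0.09 to 0.07 ± 0.09), and Rnls, renalase (-0.44 ± 0.08 to 0.16 ± 0.08). Their vehicle arrays moved by -1.37, -0.43 and -0.47.

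The effect of DEN reversed in 64 genes. Hrk, a BH3-only inducer of apoptosis, read 1.25, 1.88 and 1.48 with vehicle and 0.02, 0.59 and 0.55 with DEN at day 28, then -1.21, -0.45 and -0.03 and 0.99, 2.26 and 1.99. DEN arrays were the lower at day 28 and the higher at day 84, without overlap. The effect turned from -1.15 ± 0.37 to 2.31 ± 0.37 (difference 3.46 ± 0.52, limma adjusted p = 0.00379), and the vehicle arrays moved by -2.10 against 1.36 in the DEN arrays. Popdc2, a cyclic AMP-binding membrane protein of muscle, turned from -1.40 ± 0.36 to 2.34 ± 0.36. No day 84 vehicle array of Popdc2 was well above background, which makes the late rise at least 3.55-fold (limma adjusted p of the difference = 0.00245). Ranbp2, a nucleoporin, turned by a smaller step, from -0.26 ± 0.05 to 0.23 ± 0.05. Stat3, the main transcription factor of the acute phase response, turned from -0.27 ± 0.08 to 0.25 ± 0.08, as the vehicle arrays moved by -0.81 and the DEN arrays by -0.29.

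Other effects reversed downward. Tet3, a dioxygenase that oxidises methylcytosine, read -0.44, -0.67 and -0.32 with vehicle and -0.02, -0.16 and -0.08 with DEN at day 28, then 0.25, 0.15 and 0.25 and -0.52, -0.65 and -0.28. Groups were separate at both days in opposite order. The effect turned from 0.39 ± 0.11 to -0.70 ± 0.11 (difference -1.09 ± 0.15, limma adjusted p = 0.00292). In its list of 16 measured methylation and chromatin genes, 3 were lower at day 84 and none higher, the others being Hells, a chromatin remodeller needed for DNA methylation (-0.10 ± 0.13 to -1.29 ± 0.13), and Kdm6b. The 2 Hells probes gave differences of -1.19 and -0.47. The Kdm6b call was lost under spike-in scaling and on leaving out any of 7 of the 12 arrays. The methyltransferases Dnmt1 and Dnmt3a were not called (-0.23 ± 0.23 and -0.38 ± 0.25).

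Sphk2, a sphingosine kinase, read 2.77, 2.88 and 3.10 and 3.28, 3.22 and 3.14 at day 28, then 3.30, 3.26 and 3.13 and 2.31, 2.12 and 2.17. The gap was narrow at day 28 and wide at day 84, with the order turned. The effect turned from 0.30 ± 0.09 to -1.03 ± 0.09 (difference -1.33 ± 0.13, limma adjusted p = 0.00063). Hsd17b2, which inactivates sex steroids, turned from 0.64 ± 0.18 to -0.80 ± 0.18, while its vehicle arrays rose by 3.64 and its DEN arrays by 2.21 between the days. Plekhg5, a guanine nucleotide exchange factor, turned from 0.25 ± 0.07 to -0.61 ± 0.07, and Anks4b, an ankyrin repeat protein of brush borders, from 0.38 ± 0.10 to -0.71 ± 0.10. Icam1, the leukocyte adhesion molecule, turned from 0.40 ± 0.07 to -0.32 ± 0.07, and the call in its difference ended under spike-in scaling (-0.41).

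**Figure D4:**
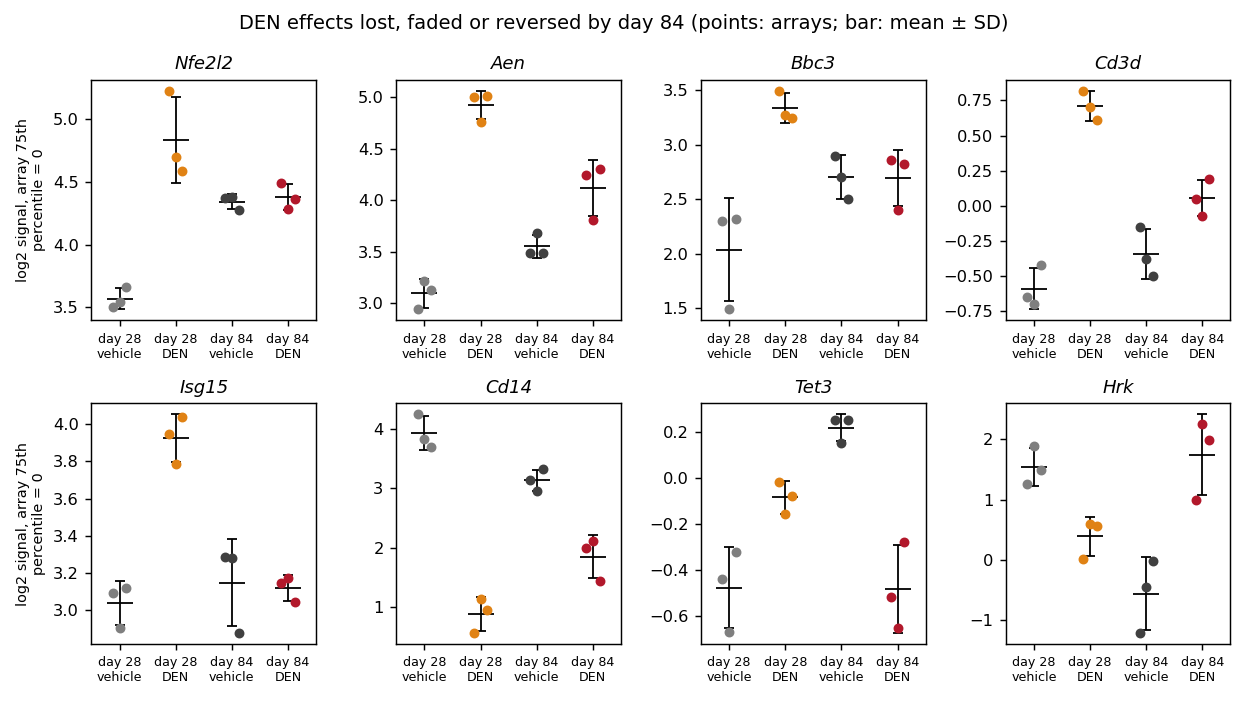
Levels (vertical, log2 relative to the array's 75th percentile) by array of 8 genes whose DEN effect shrank, vanished or turned, with the 3 arrays of each group as points and their mean ± SD as a bar with whiskers. For Nfe2l2 the groups are separate at day 28 and overlap at day 84, and for Hrk and Tet3 their order turns.

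Of 21 measured clock genes and outputs, 3 were higher and 6 lower at day 84, beside 9.36% and 13.7% of all genes tested. Without replicate 2 of vehicle at day 28 the lower count was 1, without replicate 3 of vehicle at day 84 the higher count was 6, and spike-in scaling gave 5 higher and 2 lower. Dbp, a clock-driven transcription factor with a strong daily rhythm in liver, read 1.72, 1.74 and 2.12 with vehicle and 4.07, 4.03 and 3.91 with DEN at day 28, then 6.16, 6.77 and 7.18 and 7.0, 6.89 and 7.28. The groups were separate at day 28 and overlapped at day 84. Its vehicle arrays rose by 4.84 and its DEN arrays by 3.05. The effect of 2.14 ± 0.22 at day 28 was lost (0.35 ± 0.22, difference -1.79 ± 0.32, limma adjusted p = 0.00639). Fkbp5, a glucocorticoid-induced chaperone, moved from 0.39 ± 0.19 to 2.18 ± 0.19, with -1.73 in the vehicle arrays and 0.06 in the DEN arrays. The hour of sampling is not given in the sources used here, and its part in these differences was not tested.

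**Figure D5:**
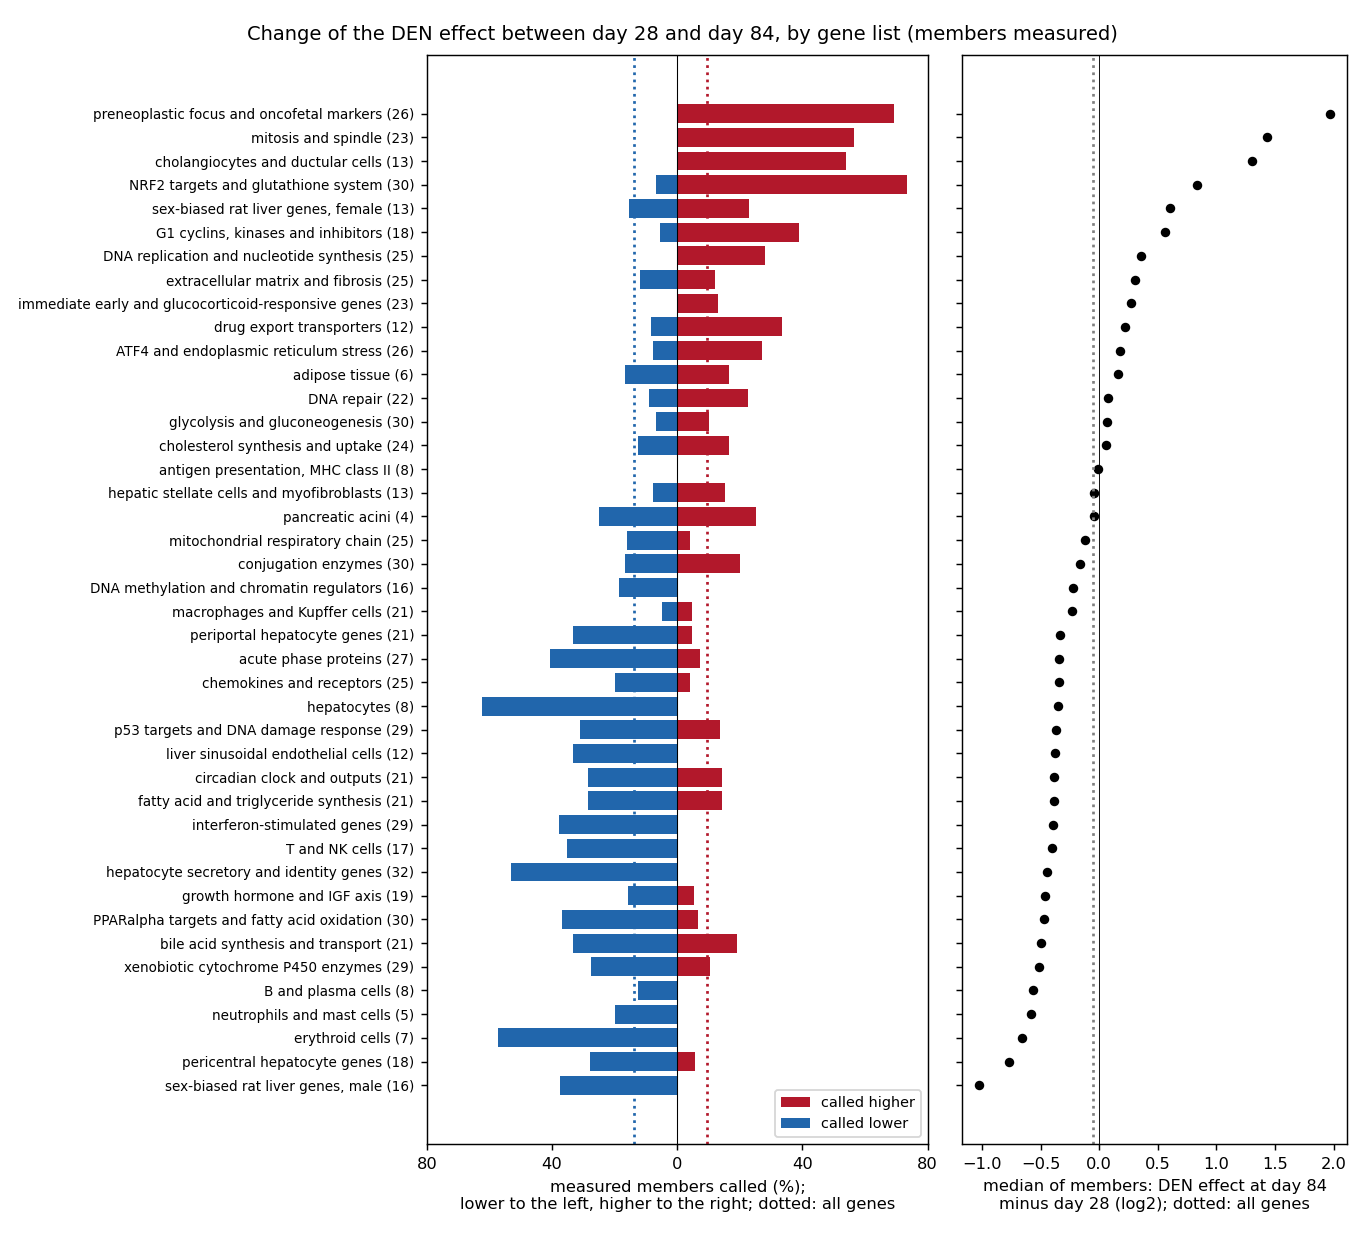
Share of measured members of each of 42 gene lists whose DEN effect was higher or lower at day 84 (horizontal bars, percent, higher to the right and lower to the left, dotted lines at the shares over all genes tested, 9.36% and 13.7%) and the median difference of each list (points, log2). Markers of foci, NRF2 targets, mitosis and duct markers stand on the higher side, and male-biased, pericentral and cytochrome P450 genes on the lower side.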

How the data were processed

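The 12 arrays were deposited as scanner files of one-colour Agilent arrays, whose headers name version 10.7.1.1 of Agilent Feature Extraction. The processed signal intensities were background-subtracted before deposit, per the file headers. The value table deposited by the authors, used as an alternative, holds the processed signal as a ratio to a constant of each array, with column medians of 0.0852 to 0.0933. This was found by setting it against the scanner files, and how the constant was chosen is not given in the sources used here. Columns without a sample numbered 0.

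Of 62976 spots, 1439 control spots were left out. The log2 of the deposited processed intensity was taken minus each array's 75th percentile. RefSeq tables gave 1 gene for 28206 of 61537 probes, and a gene was represented by its probe with the highest mean over the 12 arrays among those passing the filter. A limma model (lmFit and eBayes, limma 3.58.1, R 4.3.3, package data.table at 1.17.8) with a mean per group gave all effects, with 8 residual degrees of freedom and Benjamini-Hochberg adjustment over 10453 genes. Figures were drawn with matplotlib 3.10.9 and pandas 2.3.3, under numpy 2.4.6 and Python 3.11.15. The fit was tested on simulated data.

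Named genes are the 12 largest differences in each direction with at least 1 array well above background in every group, the 6 largest in each direction with a group not above background, the 4 smallest adjusted p of each kind of change and direction, up to 4 called members and the first 2 measured members of each list, members called at a single day that a sentence needs, and genes behind a count of 5 or fewer. Of 283 genes named in this way, 156 had several probes passing the filter, which can differ in size, and those of 6 disagreed in sign. The comparison, the lists and the members named beyond this rule were chosen with earlier results of these data known. Alternatives were normexp background correction on the median signal, other filters on dim probes, 3 other scalings, an intensity trend in the variance, all 18 arrays without and with slide as a block, replicate number as a block, every probe by itself, the value table, and each array left out. Some genes are not reported here.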

Additional observations from a re-analysis of the deposited data

Results flagged for a closer look

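The effect of DEN differed between day 28 and day 84, by a test of the difference itself (limma, adjusted p under 0.05), in 2410 of 10453 genes. In 64 of these the effect was called at both days with opposite signs. The 4 genes with the smallest adjusted p in each direction of that group were set apart by the same test. The day 84 effect minus the day 28 effect was 3.74 for Popdc2, 3.73 for Cdkn2a, 3.46 for Hrk and 0.49 for Ranbp2, which turned from a fall to a rise. For Popdc2 and Cdkn2a these are fitted values only, since 1 group of each was not well above background on any array. The day 28 fall of Cdkn2a lies near background, since only 1 of 3 vehicle arrays there was well above it. The bounds are at least 3.55-fold for Popdc2 with DEN over vehicle at day 84 and at least 9.63-fold for Cdkn2a with DEN at day 84 over day 28. It was -1.33 for Sphk2, -0.85 for Plekhg5, -1.09 for Anks4b and -0.73 for Icam1, which turned from a rise to a fall. The call of Icam1 ended under spike-in scaling.

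A signal also stood in probes that the comparison of genes did not use. Of 14132 probes matched to no single gene and passing the same filter, 1938 (13.7%) were called in the same contrast, 915 higher and 1023 lower at day 84. Their transcripts are not named here. A single array standing apart from its group was not tested for, since every group has 3 arrays.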

How the results depend on the processing

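Called genes numbered 2140 to 2705 under normexp, the bright-probe filter, median, quantile or spike-in scaling, a variance trend or the value table. With no filter on dim probes 1496 were called, 837 of them lower, with 157 grown, 14 faded, 90 lost and 19 reversed effects. Spike-in scaling, which adds a constant to every difference, gave 1908 higher, 232 lower, 989 appeared, 988 grown, 95 lost, 42 reversed, 6 called at neither day and 4197 kept, and it shared 50.2% of the 2410 calls. Under it Cox7a2 and Cox8a turned from -0.28 and -0.29 to 0.035 and 0.023, with no call. All 18 arrays gave 944 lower and 167 grown, and with slide as a block 220 grown. Normexp gave 64 called at neither day. Every probe tested by itself gave 1505 higher, 2680 appeared and 84 at neither day. Where the cause of a change is not stated it was not tested.

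Without single arrays the counts ran from 1420 to 3041 called, 634 to 1217 higher, 786 to 1824 lower, 1056 to 2029 appeared, 156 to 618 grown, 12 to 50 faded, 74 to 206 lost, 21 to 86 reversed, 17 to 76 at neither day and 787 to 1530 kept. The lowest totals came without replicate 2 or 1 of vehicle at day 84, and the highest without replicate 3 of DEN at day 84. Of 233 called genes named by the rule, 121 kept their call in every setting run and 112 lost it in at least 1.

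The numbers 1 to 3 are shared by the groups, but no label ties them to an animal or batch. Deviations of same-numbered arrays correlated between -0.071 and 0.142, and those of differently numbered arrays between -0.166 and 0.12. With so small a spread in both, the check can neither show nor exclude a pairing. With the replicate block, 2163 genes were called, 84.1% of the 2410 among them.

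With 3 arrays a group, unadjusted p was under 0.05 in 4081 genes against 2410 after adjustment. In 182 called genes a group was not well above background on any array, and only bounds hold there.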

Other observations

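Acute phase proteins, secreted by hepatocytes in inflammation, were mostly lower against vehicle at day 84 than at day 28. Of 27 measured, 2 were called higher and 11 lower, with a median difference of -0.34 beside -0.06 over all genes. Under spike-in scaling 4 were higher and 1 lower, so the direction of the list depends on the scaling. The exception in size was A2m, the rat's inducible α2-macroglobulin. Its DEN effect went from -0.10 ± 0.34 at day 28 to 2.15 ± 0.34 at day 84 (log2 difference ± SE, 3 arrays a group, limma, adjusted p of the difference 0.0119), and the call held in every setting run. Apcs, the serum amyloid P component, went from -0.21 ± 0.13 to -1.14 ± 0.13 and lost its call only in the fit of all 18 arrays. The count of lower members was 6 without replicate 3 of DEN at day 28 and 15 without replicate 3 of DEN at day 84.

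Hemoglobin transcripts, which in liver come with blood, were lower with DEN at day 84. Hba-a1 went from -0.24 ± 0.14 to -1.20 ± 0.14 (adjusted p 0.0105) and Hbb-b1 from -0.19 ± 0.16 to -1.30 ± 0.16 (adjusted p 0.00951), with both calls kept under spike-in scaling and without any single array, and both lost in the fit of all 18 arrays (adjusted p 0.0594 and 0.0808). They are members of a near-identical family, so probes may share signal. The summed linear level of the erythroid list (7 genes, 4 called lower, 2 without replicate 1 of vehicle at day 28) was 1240 to 1550 in vehicle and 1060 to 1280 in DEN arrays at day 28, and 1270 to 1450 and 502 to 741 at day 84. How much blood the samples held was not tested.

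Of 25 measured matrix and fibrosis genes, 3 were higher at day 84 and 3 lower, with a median difference of 0.31. Fn1, fibronectin, fell further, from -0.32 ± 0.10 to -0.92 ± 0.10. Mmp14, a membrane-bound matrix protease, turned from 0.45 ± 0.10 to -0.39 ± 0.10. The calls of Fn1 and Mmp14 ended under spike-in scaling. Without replicate 3 of DEN at day 28 the count of higher matrix genes was 1, and without replicate 3 of vehicle at day 28 it was 7.

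Counts of energy metabolism genes called in the difference stand beside 9.36% higher and 13.7% lower over all genes tested. Of 30 glycolysis and gluconeogenesis genes, 5 were higher and 12 lower with DEN at day 28. At day 84, 9 were higher and 10 lower, and 11 of the 30 were kept. In the difference, 3 of the 30 were higher and 2 lower (median 0.06, and 12 higher and 0 lower under spike-in scaling). Without replicate 3 of DEN at day 28 none of the 3 kept a call. Ldha, the lactate dehydrogenase A chain, went from -0.20 ± 0.09 to -0.80 ± 0.09. Pkm, the muscle-type pyruvate kinase, was at 0.54 ± 0.09 and 0.56 ± 0.09. Of 25 respiratory chain genes, 12 were lower with DEN at day 28 and 19 at day 84, with 10 kept. Over all 10453 genes tested, 1329 were lower at day 28 and 3689 at day 84. In the difference, 1 of the 25 was higher and 4 lower, and under spike-in scaling 2 were higher and 0 lower. The largest fall among them was Ndufa1, a subunit of complex I, from -0.13 ± 0.05 to -0.51 ± 0.05. Without replicate 2 of vehicle at day 84 the lower count was 1. The calls of Ldha and Ndufa1 ended under spike-in scaling.

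Among the markers of tissue that a liver sample can carry along, Cpa1, pancreatic carboxypeptidase A1, was at least 23.1-fold higher with DEN than with vehicle at day 84. Its arrays stood at -5.67, -4.83 and -4.97 in vehicle and -4.24, -4.86 and -5.72 in DEN at day 28, and at -4.93, -5.95 and -5.72 and 1.0, 1.68 and -0.38 at day 84. The other called gene of the 4 pancreatic markers measured, Cpb1, went the other way, from -0.13 ± 0.21 to -1.08 ± 0.21, a call that ended under spike-in scaling (-0.64), with the replicate block, in both fits of all 18 arrays and without each of 8 of the 12 arrays in turn.

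The 3 arrays of DEN at day 84 differed in how far they stood from vehicle. Of the 724 genes whose rise appeared late, replicate 2 was the highest of the 3 arrays in 642 and replicate 3 the lowest in 554. Of the 1007 late falls, replicate 2 was the lowest in 815 and replicate 3 the highest in 705. Among effects that grew, replicate 2 was the most extreme in 121 of 137 rises and 195 of 237 falls. The part of this order in the results was not tested.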
